A study of Mus musculus with 72 samples.

Results

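The promoter CpG island of Lyplal1 was followed through kidney and liver of Lyplal1 knockout and wild-type mice by bisulfite amplicon sequencing. Its members were the CpG positions on chromosome 1 of the mm9 build, from 187940948 to 187941221, that had at least 10 reads in all 4 island libraries of the line. There were 28 such sites, out of 299 that met the same minimum over the islands of all 6 targeted lines. The study comprised 72 libraries, 48 of them from promoter islands and the rest from the LacZ reporter. Knockout mice carried a homozygous tm1a Knockout Mouse Project allele of Lyplal1, which places LacZ under the native promoter and also holds a neo selection cassette. The controls were labelled wild type. All mice were of the C57BL/6N strain background and 7 weeks old. There was 1 island library per tissue and genotype, and nothing in the labels ties the kidney and liver of a genotype to 1 animal or to a pool. The tissues therefore served as the replicates, and the spread and p-values below rest on differences between libraries. Fisher's tests are the exception and cover counting error only. Site tests of genotype with a tissue term first remove the difference between tissues that both genotypes share. Their p-values are set against what remains, not against the SD of the levels between tissues. Permutation tests between lines compare the differences of lines and tissues. Variation between animals could not be measured separately.

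Lyplal1 encodes lysophospholipase-like 1, a serine hydrolase related to the acyl-protein thioesterases. CpG islands are stretches of DNA rich in the dinucleotide CG that cover many mammalian promoters and are usually unmethylated in normal tissue. Methylation of a promoter island is associated with a silent gene. Bisulfite turns unmethylated cytosine into uracil, read as thymine, so the share of reads that still carry cytosine gives the methylation level of a site.

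The position of the sites relative to the gene start was read from the spacing of the CpGs. The RefSeq promoter window of Lyplal1 in GRCm38.p6 (chr1:186117261-186117560, minus strand) runs from 250 bases before the annotated start to 50 after it and holds 17 CpGs. The median over all 32851 promoter windows was 7. The 12 sites at the upper end of the amplicon, from 187941150 to 187941221, fell on 12 successive CpGs of this window at 1 alignment, whereas the next best alignment placed 5. No coordinate was converted between builds. In the sequence, written 5′ to 3′ on the gene strand, capitals mark these 12 CpGs.
Lyplal1 promoter: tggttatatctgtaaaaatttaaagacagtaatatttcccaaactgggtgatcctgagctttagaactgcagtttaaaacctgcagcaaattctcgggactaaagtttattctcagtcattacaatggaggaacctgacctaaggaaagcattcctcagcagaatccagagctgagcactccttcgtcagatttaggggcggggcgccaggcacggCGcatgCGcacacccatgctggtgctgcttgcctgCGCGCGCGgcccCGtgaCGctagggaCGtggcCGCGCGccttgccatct

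By this match, 2 of the sites lay before the gene start, with their cytosines at -28 (187941215) and -34 (187941221). The other 10 lay at +2 to +38, inside the transcript. The remaining 16 sites lay beyond the window, further into the gene, and their sequence was not at hand. The 2 sites before the start are shown apart because they stood far above all others in every library.
Sites before the start: aggcacggCGcatgCGcacaccca
Both capitalised CpGs lie in a match to the palindromic NRF1 motif. NRF1 is a transcription factor of many housekeeping and mitochondrial gene promoters. On either strand this motif was present in 0.971% of all promoter windows. Of the other motifs searched on either strand, a GC box (GGGCGG, in 35.7% of windows) was found at -54, and it overlapped none of the sites. The window held no CCAAT box (CCAAT, in 37.4% of windows), no TATA box (TATAAA, in 13.6%) and no E-box (CACGTG, in 7.15%). It also held no cyclic AMP response element (TGACGTCA, in 1.79%) and no ZBTB33 palindrome (in 0.466%).

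The knockout libraries held 80680 methylation calls in kidney and 93001 in liver, and the wild-type libraries 886348 and 688883. The knockout kidney library was the smallest of all 48 island libraries, which held 80680 to 7665647 calls. Over the 28 sites, the lowest coverage was 890 reads in knockout kidney, 1193 in knockout liver, 15082 in wild-type kidney and 10221 in wild-type liver. Another 14 positions of the amplicon were listed with at most 47 reads and were not used. Of these, 7 fell inside the promoter window, 6 of them at places where the RefSeq sequence has no CpG. Only 187941224, which is a CpG there, carried methylated reads, namely 2 of 5 in wild-type kidney and 1 of 3 in wild-type liver.

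**Figure D1:**
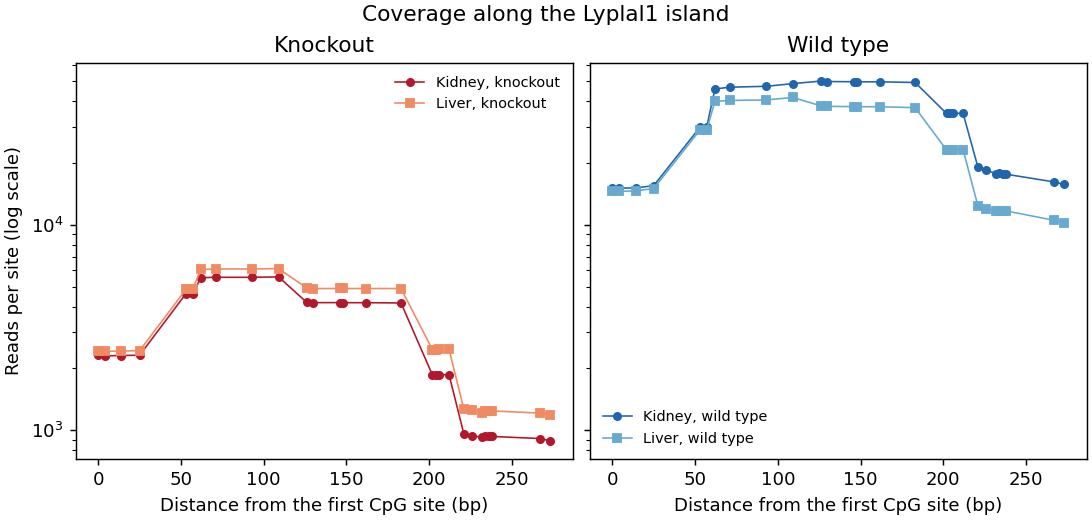
Reads per CpG site (log scale) against distance from the first site in bp, for knockout libraries on the left and wild-type libraries on the right. All 4 libraries were deepest in the middle of the amplicon and shallower at both ends, and wild-type libraries were deeper than knockout libraries at every site.

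The first comparison asked whether the island was more methylated in the knockouts. Averaged over the 28 sites, the level was 16.6% in knockout kidney, 11.8% in knockout liver, 7.90% in wild-type kidney and 7.13% in wild-type liver. Both knockout libraries lay above both wild-type libraries. The knockouts averaged 14.2% ± 3.39 (SD, n = 2 tissues) and the wild types 7.51% ± 0.542 (SD, n = 2). The difference was 8.71 percentage points in kidney and 4.68 in liver, a mean of 6.69 ± 2.85 (SD, n = 2). It was positive in 2 of 2 tissues, and the exact permutation p from flipping signs, two-sided, was 0.5, the smallest that 2 tissues allow. With all sites thinned to 890 reads in each library, the depth of the least covered one, the mean difference was 6.78 points.

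These averages combined 2 kinds of site. At 5 sites the wild-type mean over tissues was at least 5%, and they are called elevated here. At the other 23, called low sites, wild-type methylation lay between 0.882% and 2.15% in kidney and between 0.235% and 1.53% in liver. At the same 23 sites the knockout level was 7.37% to 16.6% in kidney and 3.30% to 8.32% in liver. Each low site was highest in knockout kidney, next in knockout liver, then in wild-type kidney, and lowest in wild-type liver. Averaged over the low sites, the levels in that order were 10.2%, 5.19%, 1.27% and 0.520%. The 95% Wilson intervals of knockout and wild type, which cover counting error only, did not overlap at any low site in either tissue. Over all 28 sites the knockout interval lay above at 27 in kidney and 26 in liver, against 43.8% of 192 kidney sites and 36.2% of 232 liver sites over the lines with that tissue. In kidney, Arap also had it at 27 of 31 sites.

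**Figure D2:**
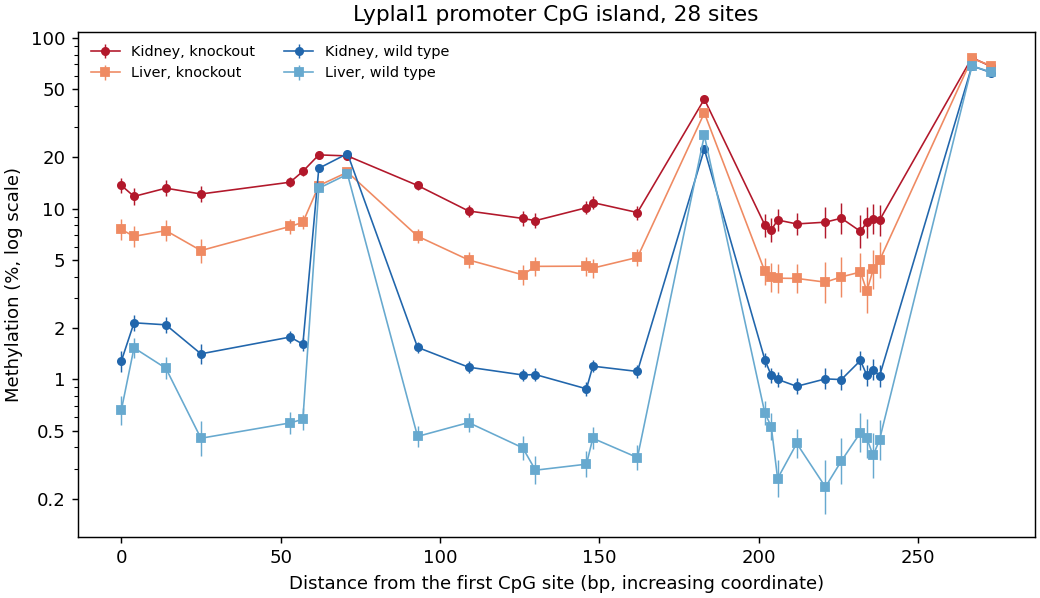
Methylation of the 28 Lyplal1 sites (percent, log scale) against distance from the first site in bp, with 95% Wilson intervals, in kidney and liver of knockout and wild-type mice. At the low sites the 4 libraries keep 1 order, and at 4 of the 5 elevated sites the knockout and wild-type lines come close together.

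The sites were tested one by one with edgeR's quasi-likelihood test on methylated and unmethylated reads, with tissue as a term. P-values were adjusted over the 299 island sites of the 6 lines. The threshold was an adjusted p of 0.05. In Lyplal1, 23 of 28 sites passed it with the higher level in knockouts and 0 with the lower. Over all 299 sites, 22.4% passed as higher and 1.67% as lower, and over the 271 sites of the other 5 lines 16.2% passed as higher. Among those lines Rgcc and Arap also had calls in 1 direction only. Rgcc had 25 calls among its 67 sites and Arap 6 among its 31, all with more methylation in knockouts. The 23 were exactly the low sites, with adjusted p-values from edgeR of 0.00289 to 0.0243. No site was lower at an unadjusted p under 0.05 in edgeR, and limma also called 0 lower and the same 23 higher, against 1.34% lower and 18.7% higher of all 299 sites and 12.2% higher of the 271. At 26 of 28 sites the lower knockout library lay above the higher wild-type library, which was the case at 26.4% of all 299 sites.

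The calls, but not the sizes of the differences, rested on the tissue term. At 187941005 the log2 odds ratio was 3.76 with the term and 3.77 without it, while the edgeR adjusted p was 0.00669 and 0.0854. The fit leaves 1 residual degree of freedom per site, and without the tissue term 1 site was called, 187941186, against 9.03% higher and 0.669% lower of all 299 sites and 9.59% higher of the 271. Of the 28, 23 then had an unadjusted p under 0.05, a count whose share over the 299 sites was not computed. Single Lyplal1 libraries were also left out, with no tissue term for Lyplal1 and the other lines fitted as before. This gave 1 call without knockout kidney (12% of all 299 sites), 6 without knockout liver (13.7%), 8 without wild-type kidney (15.4%) and 5 without wild-type liver (13.4%).

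Among low sites the gain was largest at 187941005. It had 16.6% in knockout kidney, 8.32% in knockout liver, 1.61% in wild-type kidney and 0.585% in wild-type liver, a mean difference of 11.3 ± 5.10 points (SD, n = 2, edgeR adjusted p = 0.00669). The neighbouring site 187941001 had 14.3% and 7.88% in knockout kidney and liver and 1.77% and 0.557% in wild type, a difference of 9.93 ± 3.68 points (edgeR adjusted p = 0.0172). The site farthest into the gene, 187940948, had 13.7% and 7.57% in knockouts and 1.28% and 0.659% in wild type, a difference of 9.67 ± 3.90 points (edgeR adjusted p = 0.00289). At each of these sites both knockout levels were several times the wild-type level of the same tissue.

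The smallest gains among low sites were at sites inside the promoter window. At 187941180 (+8) the levels were 7.37% and 4.26% in knockout kidney and liver and 1.29% and 0.489% in wild type, a difference of 4.92 ± 1.63 points (edgeR adjusted p = 0.0177). At 187941152 (+36) they were 7.49% and 3.96% against 1.06% and 0.531%, a difference of 4.94 ± 2.12 points (edgeR adjusted p = 0.00289). At 187941182 (+6) they were 8.32% and 3.30% against 1.06% and 0.452%, a difference of 5.06 ± 3.13 points (edgeR adjusted p = 0.00669). The lowest levels of the wild-type libraries were 0.882% at 187941094 in kidney and 0.235% at 187941169 in liver. At these sites the knockouts had 10.1% in kidney and 3.72% in liver.

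Among the low sites, the knockout level tended to decline along the island towards the gene start, but not steadily. In knockout kidney the mean was 12.7% at the first 4 sites and 15.4% at 187941001 and 187941005. It was 8.06% from 187941150 to 187941160 and 8.36% from 187941169 to 187941186. The same means in knockout liver were 6.90%, 8.10%, 4.02% and 4.11%. Across the 23 low sites, Spearman's rho between coordinate and level was -0.775 in knockout kidney and -0.762 in knockout liver, and -0.662 and -0.578 in wild-type kidney and liver. Over all 28 sites, elevated ones included, rho was -0.379 in knockout kidney and -0.371 in knockout liver, while Pearson's r was 0.270 and 0.321, with the highest levels at the end before the start. These values describe sites that share a library and often the same reads. In knockout kidney the largest fall between neighbouring low sites lay between 187941041 and 187941057, which are 16 bp apart. There the level went from 13.7% to 9.70%, at 5554 and 5577 reads, while knockout liver went from 6.90% to 5.01%. The same interval went from 1.54% to 1.18% in wild-type kidney and from 0.464% to 0.560% in wild-type liver. The 7 low sites before this step had a median of 13.7% in knockout kidney and 7.45% in knockout liver, and the 16 after it had 8.58% and 4.28%. The step was picked from these same values, so the medians only describe it and are no separate evidence of a step. Coverage also varied along the amplicon, between 923 and 5577 reads over the low sites in knockout kidney, and its part in the decline was not tested.

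None of the 5 elevated sites passed the edgeR test at the adjusted threshold. An unadjusted edgeR p under 0.05 was reached at 2 of them, a count whose share over the 299 sites was not computed. With counts thinned to 890 reads, 1 of the 5 passed. In points, their mean gain was 7.54 in kidney and 4.70 in liver, against 8.96 and 4.67 at the low sites. Their gains were uneven, from -0.652 to 21.5 points in kidney and from 0.451 to 9.50 in liver. In all 4 libraries the highest site was 187941215, followed by 187941221 and then 187941131. The site at -28, 187941215, had 76.6% in knockout kidney and 75.9% in knockout liver, against 68.7% and 68.6% in wild type, a difference of 7.68 ± 0.428 points (SD, n = 2, edgeR adjusted p = 0.0579). The site at -34, 187941221, had 68.1% and 68.8% in knockouts against 62.6% and 63.1% in wild type, a difference of 5.56 ± 0.158 points (edgeR adjusted p = 0.115). At these NRF1-motif sites the knockout exceeded wild type in both tissues by nearly the same amount, and kidney and liver lay within 1 point of each other in each genotype. They are also the last members at that end of the amplicon and have the lowest coverage in knockouts, 890 to 1213 reads.

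The site 187941131 had the largest gain of the island in points. It had 43.8% in knockout kidney and 36.4% in knockout liver, against 22.3% and 26.9% in wild type, a difference of 15.5 ± 8.47 points (edgeR adjusted p = 0.143). Wild-type liver exceeded wild-type kidney here, the reverse of the order at the low sites. The remaining elevated sites lay 9 bp apart, next to 187941005, the low site with the highest knockout level in both tissues. At 187941010 the knockouts had 20.7% in kidney and 13.7% in liver against 17.2% and 13.2%, a difference of 1.95 ± 2.08 points (edgeR adjusted p = 0.523). At 187941019 they had 20.4% and 16.4% against 21.0% and 15.9%, a difference of -0.101 ± 0.779 points (edgeR adjusted p = 0.98). These were the smallest differences of the 28 sites, and the genotypes were not separated there beyond the spread between tissues.

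**Figure D3:**
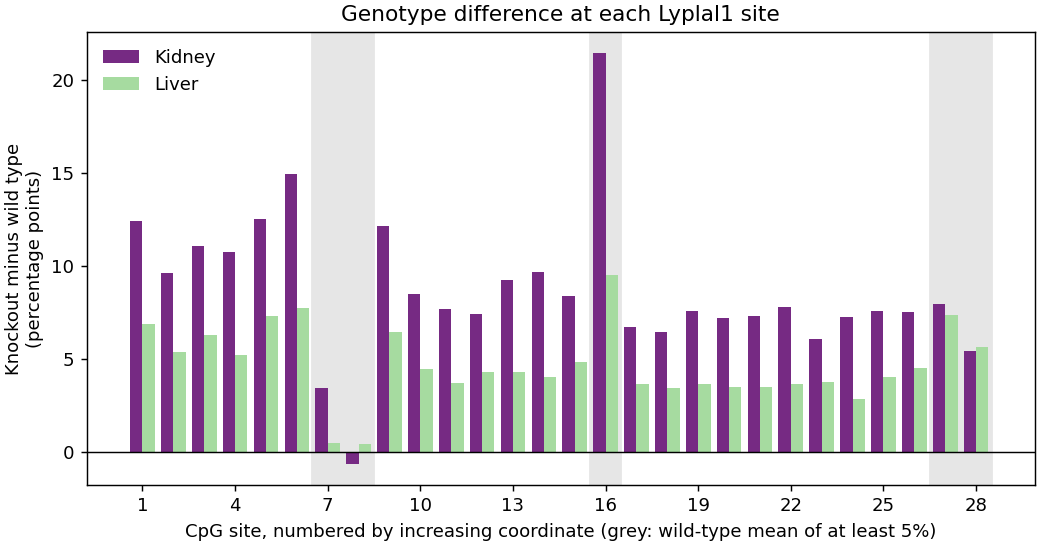
Knockout minus wild-type methylation in percentage points at each of the 28 sites, numbered by increasing coordinate, with kidney and liver as separate bars and elevated sites shaded. The kidney bar exceeds the liver bar at all 23 low sites, and the smallest bars are at sites 7 and 8, both elevated.

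The second comparison was between the tissues. Kidney lay above liver at 27 of 28 sites in knockouts and at 26 of 28 in wild type, and in both genotypes at 26 sites. Over the islands of the 4 lines that had both tissues, 39.1% of 192 sites had this order in both genotypes, with 28 of 78 in Dstn, 21 of 55 in Ninj1 and 0 of 31 in Arap. At the low Lyplal1 sites kidney exceeded liver by 3.11 to 8.24 points in knockouts and by 0.490 to 1.22 points in wild type. In the edgeR test of the tissue term, 5 of 28 sites passed as higher in kidney and 0 as lower, against 2.6% of the 192 sites higher in kidney and 3.65% in either direction. An unadjusted p under 0.05 was reached at 23 of 28, each higher in kidney. Its share over the 192 sites was not computed, and the 28 sites share the same libraries. The 5 sites were 187940948, 187940962, 187941150, 187941152 and 187941160, all with an edgeR adjusted p of 0.0481. The count was 0 without the genotype term, as over all 192 sites (0%), and 10 in limma, against 5.21%.

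The gain of the knockout was larger in kidney than in liver at 26 of 28 sites when given in points. The share over the 192 sites was not computed. The island difference was also larger in kidney than in liver in Arap (0.241 against -0.863 points) and Ninj1 (0.351 against 0.0311). In Dstn it was smaller (0.0775 against 0.224). Given as a ratio of knockout to wild type, the order in Lyplal1 was the other way at most low sites. The ratio ran from 5.50 to 11.5 in kidney, with a median of 8.25, and from 4.50 to 15.8 in liver, with a median of 11.5, and it was larger in liver at 21 of the 23 low sites. With 1 library per tissue and genotype, a difference between tissues in the effect of the genotype leaves no residual degrees of freedom and was not tested. Over the 28 sites the kidney and liver differences had a Pearson correlation of 0.872 and a Spearman rho of 0.781, given as a description of sites that share libraries.

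The LacZ reporter was amplified from the same knockout DNA, per the series design text, and gives a separate readout of the allele. At 141 reporter sites with at least 10 reads in both tissues, the mean level was 58.3% in kidney and 39.3% in liver. Kidney exceeded liver at 127 of these sites, by 19.0 points on average, so the order of the tissues was that of the island. The levels ran from 30.5% to 81.3% in kidney and from 24.2% to 78.7% in liver. By the part of the reporter they were 61.5%, 61.6% and 53.6% in kidney and 43.0%, 38.7% and 35.7% in liver, from the first to the last part of equal length. Within each tissue the reporter mean was above the island level at every site but 187941215 and 187941221.

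The Lyplal1 island was last set against the islands of the other 5 lines. Its 2 differences of 8.71 and 4.68 points stood above all 22 differences of the other lines and tissues, which ran from -0.863 to 2.47 points. The larger one, in kidney, rests on the island library with the fewest calls of all 48. Whether unequal amplification has a part in it was not tested. The mean over Lyplal1 exceeded that over the other pairs by 6.29 points, with an exact permutation p of 0.00362 over 276 splits, two-sided and the smallest these numbers allow. Tissues of 1 line count as separate values in it. Over the 6 line means the exact permutation p was 0.167, again the smallest possible. Against kidney and liver of the other lines alone the excess was 6.72 points (exact permutation p = 0.0278).

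**Figure D4:**
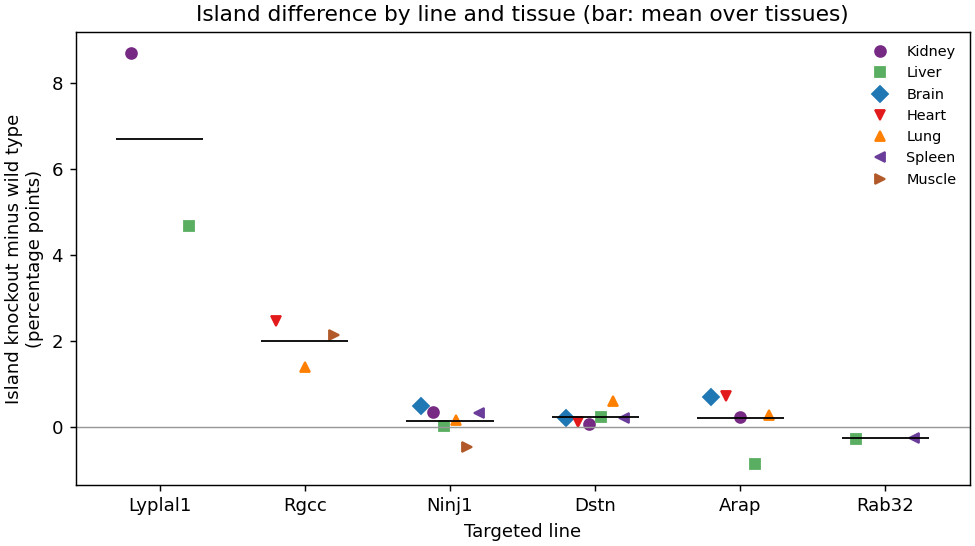
Island knockout minus wild-type methylation in percentage points for each line and tissue, with bars at the mean over tissues. Both Lyplal1 points, at 8.71 and 4.68, lie above the highest point of any other line, Rgcc heart at 2.47.

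The next largest differences were those of Rgcc, with a mean of 2.01 points over 3 tissues. The Lyplal1 mean exceeded it by 4.69 points, and the two-sided exact permutation test gave p = 0.1, the smallest that 2 against 3 values allow. In kidney the other lines had differences of 0.241 points in Arap, 0.0775 in Dstn and 0.351 in Ninj1. In liver they had -0.863 in Arap, 0.224 in Dstn, 0.0311 in Ninj1 and -0.278 in Rab32. In each line the low sites were defined by a wild-type mean under 5%, with no limit on the knockout level. A low wild-type level there follows from this definition and is no separate result. At these sites the wild-type level was 0.894% in Lyplal1 and 0.427% to 1.11% in the other 5 lines. The knockout level was 7.71% in Lyplal1 and 0.470% to 3.34% in the others.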

How the data were processed

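Bisulfite-treated genomic DNA was amplified and sequenced, per the labels' protocols. Bowtie2, Bismark and the mm9 build are named in the submitters' processing notes, without versions. Duplicate removal is not given in the sources used here. Each file deposited by the authors gives methylated and unmethylated read counts per CpG, not normalized, with the percent methylated. Recomputing that percent from the counts changed it by at most 5.68e-14.

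Titles spell the line Lyplal or Lyplal1, and these were merged. For Lyplal1, 3 rows more than 2000 bp from the island (7 calls) were left out. Levels are unweighted means over sites with at least 10 reads in all libraries of a line. Amplicon reads carry no molecular identifiers, so several may copy 1 molecule, intervals cover counting error only, and unequal amplification can shift levels. Kidney was paired with kidney and liver with liver, by the tissue label.

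Site tests used edgeR 4.0.16 in R 4.3.3, with library, genotype and tissue terms, each line fitted separately and p-values adjusted by Benjamini-Hochberg over all lines. They were also run on simulated counts, with sites drawn independently and no tissue difference, unlike these data. That run is not used as support here. The limma 3.58.1 alternative used logits with an offset of 0.5 calls. Level tests were exact permutation tests in Python 3.11.15. Sites named in full were elevated sites, the extremes of the low sites and of each library, the ends of the island and all sites not called. Members, lists and rules were chosen with earlier results of these data known.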

Additional observations from a re-analysis of the deposited data

Results flagged for a closer look

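The Lyplal1 island difference exceeded that of the other lines by 6.29 percentage points, a difference that was itself tested (exact permutation p = 0.00362 with tissues as separate values, and 0.167 over the 6 line means, each the smallest possible). At 187941019 the knockout was below wild type in kidney (-0.652 points) and above it in liver (0.451 points), opposite directions with 1 pair each, and the difference was not tested. At 187941131 kidney minus liver was 7.42 points in knockouts and -4.55 points in wild type, also opposite and not tested.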

How the results depend on the processing

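The island difference stayed positive in every alternative run, from 5.09 to 6.82 points, with 0.967 on the log2 odds scale and 4.68 to 8.71 with single tissues. The excess over other lines stayed at the smallest possible exact p throughout, and was 4.27 to 8.30 with single Lyplal1 tissues. The count of 23 higher sites was 23 under both other coverage minimums and limma, 24 with thinned counts, and 27 and 26 in Fisher's tests of the kidney and liver pairs, which compare single libraries. It was 1 with no replicate block (no tissue term), 1 with a difference of at least 10 points, and 1 to 8 leaving out single libraries. The count of tissue sites, 5, was 0 with no replicate block, with no coverage minimum and at 10 points. It was 0 (from 0 to 0) leaving out single libraries, 10 in limma and with thinned counts, and 26 in each Fisher's test, where 1 of the 26 in wild type was lower in kidney. The cause was not tested. Shares over all island sites were not computed for the coverage minimums, thinned counts, Fisher's tests or the 10-point limit. Those counts are therefore not set against the other lines. The log2 odds ratio at 187941019 turned from -0.0047 to 0.0542 with thinned counts and 0.0485 in the liver Fisher's test, and ranged from -0.251 to 0.241 leaving out single libraries (0.189 without knockout liver). At 187941010 it was 0.192 and ranged from -0.169 to 0.551, with -0.0375 without wild-type liver. The LacZ level of 48.8% was 44.8% to 48.8% under settings chosen after seeing the data.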
